A study of Homo sapiens with 8 samples.

Results

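The baseline transcriptome of A549, a widely used human cell line derived from a lung adenocarcinoma, was described from the vector control libraries of the series. These are 2 of 8 RNA-seq libraries, chosen by their labels and not by any measured value, and all 17056 genes of the deposited table were described in them. The other 6 libraries came from cells with AFAP1-AS1 (a long non-coding RNA) overexpressed, knocked down, or subjected to a knockdown control, with 2 libraries each, and no comparison was made with them. The vector cells are A549 cells whose genotype label gives a vector and nothing else, so they stand for a vector-carrying baseline and not for untreated cells. The labels do not give the vector, the way it was delivered, or whether the replicates came from separate cultures, so a difference between the replicates may be technical. AFAP1-AS1 was not analysed here. Levels are in FPKM, fragment counts scaled to transcript length and to library size, and every pair of values gives vector replicate 1 and then vector replicate 2.

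Alveolar type 2 cells, from which A549 is often said to derive, make the surfactant that lowers surface tension in the lung and depend on the transcription factor NKX2-1. As background, A549 is known to carry inactivating mutations of KEAP1, STK11 and SMARCA4, and a deletion of CDKN2A and CDKN2B. KEAP1 marks the transcription factor NRF2 (NFE2L2) for degradation, and NRF2 drives genes of glutathione, thioredoxin and NADPH metabolism. Sequence variants cannot be read from values per gene, so the mutations were not examined here.

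Of the 17056 genes, 10536 (61.8%) had a mean of at least 1 FPKM over the libraries, 5088 (29.8%) reached 10 FPKM and 571 (3.35%) reached 100 FPKM. A further class of 1728 genes (10.1%) was at 0 in both libraries. At 0 in 1 library and above 0 in the other were 1194 genes. Every gene of the table was above 0 in at least 1 of the 8 libraries. Genes at 0 throughout the series are therefore absent from it. Shares of all genes, here and below, are shares of genes read somewhere in the series. Counts for gene lists take in only members in the table. The median gene was at 3.06 FPKM. Below, a gene or list member called above a level has a mean of at least that level. Expression was concentrated in few genes. The 10 highest genes held 8.94% of the FPKM total, the 100 highest held 33.1%, and the 341 highest held 50% of it. The recovered depth was 33359120 and 36416708 reads, so 1 read was worth little: for a gene at 0, a count of 3 reads was taken as the highest that a 0 allows. This limit is 1-sided, and the 2-sided exact 95% Poisson interval of a 0 ends at 3.69 reads. Such limits and all intervals below cover counting error only.

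The libraries resembled each other closely wherever reads were plentiful. Across genes, log2(FPKM + 1) correlated with a Pearson r of 0.998, and genes are not independent replicates. The median absolute log2 ratio between the libraries was 0.93 for genes below 0.1 FPKM, 0.38 from 0.1 to 1 FPKM, 0.11 from 1 to 10 FPKM and 0.05 to 0.06 in the classes above. The counts still differed by more than sampling noise, with a chi-square of 5.75 per degree of freedom over 13487 genes, and the libraries were kept as 2 samples. A level above 10 FPKM was therefore repeatable to a few percent in most genes, whereas levels below 0.1 FPKM rest on a median of 2.5 reads per library. Among the 5088 genes of at least 10 FPKM, MALL, a MAL family membrane protein gene chosen after its values were seen, differed most between the replicates, at 34.4 and 16.5 FPKM from 2834 and 1488 reads. The next largest log2 ratio in that class was 0.43.

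**Figure D1:**
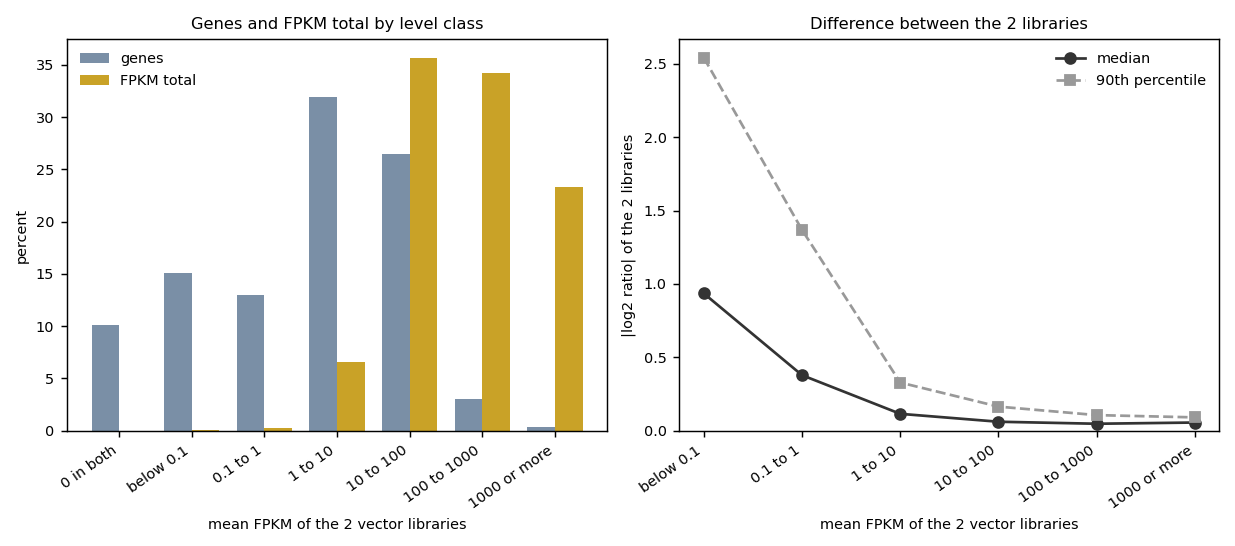
Left, the percent of 17056 genes (grey) and of the FPKM total (gold) in each class of mean FPKM, where the 51 genes of at least 1000 FPKM hold 23.3% of the total. Right, the median and 90th percentile of the absolute log2 ratio between the 2 vector libraries in each class, for genes above 0 in both, where the median falls from 0.93 below 0.1 FPKM to 0.05 in the highest class.

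Iron storage, glycolysis, cytoskeleton and protein synthesis led the list. FTL, the light chain of ferritin, was the highest gene at 6926 and 6653 FPKM. FTH1, the heavy chain that oxidises iron for storage, followed at 3972 and 4179 FPKM, and the light chain exceeded the heavy chain by 1.67 times. The third was the glycolytic enzyme gene GAPDH, at 3787 and 3945 FPKM. Next came TMSB10, which encodes an actin monomer-binding thymosin, at 3135 and 3176 FPKM. ACTG1 and ACTB, the cytoplasmic actins, stood at 2595 and 2614 FPKM and at 2575 and 2545 FPKM, close to each other. EEF1A1, which delivers aminoacyl-tRNA to the ribosome, was at 2558 and 2687 FPKM. All these genes have processed pseudogenes or close paralogs with which the authors' counting may have shared reads, which makes their exact order uncertain.

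Ribosomal protein genes made up 17 of the 30 highest genes. The 82 cytosolic ribosomal protein genes in the table, paralogs included, held 16.0% and 16.4% of the FPKM total, with a median of 532 FPKM. Of them 80 were above 1 FPKM, against 61.8% of all genes. RPS2 was at 2467 and 2566 FPKM and RPL41 at 2103 and 2247 FPKM. Subunits of the same ribosome were nevertheless listed at very different levels: RPL17 at 13.0 and 13.0 FPKM, RPS10 at 3.06 and 3.46 FPKM and RPL36A at 0.740 and 0.535 FPKM. Each ribosome contains these proteins in equal number, and all of them have near-identical pseudogene copies or readthrough neighbours, so that these low levels are uncertain. Whether reads were lost to such copies was not tested. The muscle paralog RPL3L was at 0 in both libraries, against 1114 and 1156 FPKM for RPL3.

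The remaining 6 of the 30 highest genes were mostly enzymes. ALDH1A1, a retinaldehyde dehydrogenase that also oxidises other aldehydes, was at 1972 and 2026 FPKM and ranked 11. The aldo-keto reductase genes AKR1B1 and AKR1B10, which reduce aldehydes with NADPH, were at 1576 and 1631 FPKM and at 1437 and 1451 FPKM. PKM, which makes pyruvate, was at 1394 and 1412 FPKM. PPIA, the cyclophilin that binds cyclosporin, was at 1436 and 1497 FPKM, and S100A6, a calcium-binding protein gene, was at 1311 and 1356 FPKM. These 6 genes, the 17 ribosomal protein genes and the 7 genes named before them make up the 30.

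Promoters of silent and expressed genes differed in base composition. RefSeq promoters on GRCh38.p14 (250 bases before to 50 after the start) were taken for the 9819 genes with a single listed start. The observed to expected ratio of CpG dinucleotides had a median of 0.336 for genes at 0 in both libraries, 0.510 below 0.1 FPKM, 0.735 from 0.1 to 1 FPKM and 0.859 from 1 to 10 FPKM, and stayed between 0.873 and 0.909 above. The letters TATAAA, searched on both strands, were present in 8.14% of all these promoters. Their share was 19.2% in genes at 0, with an exact 95% binomial interval of 16.8% to 21.7%, and fell to 4.16% (3.48% to 4.92%) from 1 to 10 FPKM. It was 11.4% (8.13% to 15.5%) from 100 to 1000 FPKM, so the share was lowest in genes of moderate level and not in the highest ones. These are descriptions across genes, which share sequence families, and no test was made.

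**Figure D2:**
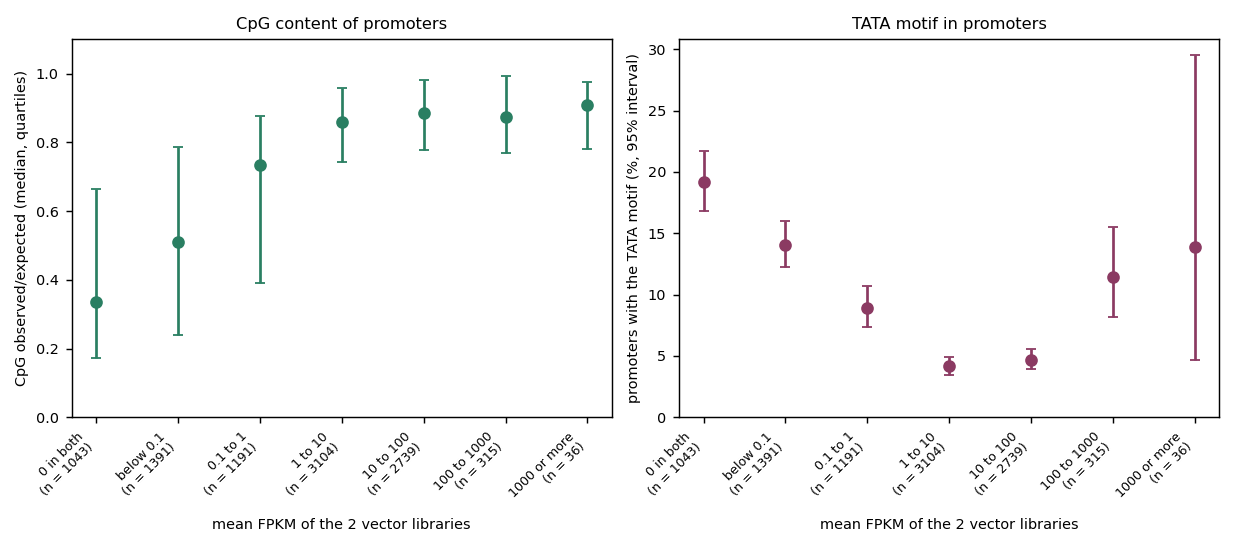
Left, the observed to expected CpG ratio (median and quartiles) and right, the percent of promoters with TATAAA on either strand (exact 95% binomial interval), by class of mean FPKM in the vector libraries; n is the number of promoters. CpG content rises from 0.336 to 0.859 by the class of 1 to 10 FPKM and then levels off, whereas the TATA motif share falls from 19.2% to 4.16% and is 11.4% from 100 to 1000 FPKM.

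The 250 bases before the start are shown for the highest gene, the highest aldehyde dehydrogenase gene and a surfactant gene at 0, with each CG in capitals, because they place individual genes against these classes. All are 5′ to 3′ on the coding strand: FTL at chr19:48965059-48965308 (plus strand), ALDH1A1 at chr9:72953054-72953303 (minus strand) and SFTPA1 at chr10:79610689-79610938 (plus strand), on GRCh38.p14.
FTL: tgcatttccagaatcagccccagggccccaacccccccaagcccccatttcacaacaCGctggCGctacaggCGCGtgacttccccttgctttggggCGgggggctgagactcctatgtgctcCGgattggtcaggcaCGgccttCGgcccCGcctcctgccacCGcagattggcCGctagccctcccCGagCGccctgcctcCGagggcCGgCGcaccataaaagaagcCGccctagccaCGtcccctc
ALDH1A1: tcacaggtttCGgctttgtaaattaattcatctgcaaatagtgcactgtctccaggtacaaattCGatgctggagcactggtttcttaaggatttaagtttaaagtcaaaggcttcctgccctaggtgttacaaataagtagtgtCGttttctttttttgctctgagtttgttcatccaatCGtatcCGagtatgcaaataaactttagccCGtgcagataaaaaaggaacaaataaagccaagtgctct
SFTPA1: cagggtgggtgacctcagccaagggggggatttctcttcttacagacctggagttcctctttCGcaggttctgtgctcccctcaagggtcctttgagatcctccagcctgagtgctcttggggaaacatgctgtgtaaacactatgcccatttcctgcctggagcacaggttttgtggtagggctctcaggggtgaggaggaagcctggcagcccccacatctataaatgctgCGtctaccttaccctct
FTL held 18 CG in 67.6% G and C, a ratio of 0.666, where the median over the same 250 bases was 0.887 for genes of at least 1000 FPKM and 0.331 for genes at 0. ALDH1A1, ranked 11 by level, held 6 CG in 38.4% G and C, a ratio of 0.651. SFTPA1 held 2 CG, a ratio of 0.105, and TATAAA began 28 bases before its start.

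Most markers of the alveolar type 2 cell were near or at 0. Of the 15 genes on that list, 5 had a mean of at least 1 FPKM, against 61.8% of all genes, 5 were at 0 in both libraries, against 10.1%, and the list's median was 0.106 FPKM, against 3.06 FPKM over all genes. The 5 surfactant protein genes had between 0 and 4 reads per library. SFTPC, whose product is specific to the type 2 cell, had 0 reads in both libraries, which allows up to 0.0531 and 0.0486 FPKM. SFTPA1 and SFTPA2, near-identical neighbours on chromosome 10, also had 0 reads, with limits of 0.0373 and 0.0342 FPKM for SFTPA1. Whether reads that fit both of these genes were left uncounted was not tested, so their levels are uncertain. SFTPB had 0 and 1 reads and SFTPD had 0 and 4 reads. The phosphate transporter gene SLC34A2 and the pepsinogen gene PGC were at 0 as well. NAPSA, an aspartic protease that processes surfactant protein B, was at 0.175 and 0.231 FPKM, LAMP3 of the lamellar body at 0.203 and 0.0500 FPKM and HHIP at 0.128 and 0.0846 FPKM.

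A smaller group of type 2 genes was expressed. LPCAT1, which makes the disaturated lipid of surfactant, reached 51.4 and 50.03 FPKM. ETV5, a transcription factor that maintains type 2 cells, was at 9.81 and 10.2 FPKM, and ABCA3, which pumps lipid into lamellar bodies, was at 8.61 and 8.06 FPKM. The cathepsin gene CTSH was at 4.48 and 4.06 FPKM and the lipid transporter gene MFSD2A at 0.960 and 1.81 FPKM. The defining surfactant markers of the lung origin were therefore at or near 0 in these libraries. In bulk libraries a low level in all cells and a higher level in few cells cannot be told apart.

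Transcription factors of the lung and foregut ranged widely. Of 16 genes, 10 were above 1 FPKM, a share near the 61.8% of all genes. None was at 0 in both libraries, where 10.1% of all genes were. NKX2-1 (chromosome 14, 36516397 to 36520232), the lineage factor of lung epithelium, had 5 and 7 reads, or 0.0624 and 0.0799 FPKM, with exact 95% Poisson intervals of 1.62 to 11.7 reads and 2.81 to 14.4 reads. The epithelial factors ELF3 at 52.7 and 53.5 FPKM and KLF5 at 24.8 and 23.7 FPKM were among the highest, with CEBPB at 43.7 and 42.4 FPKM between them. FOXA2 was at 11.7 and 11.8 FPKM and exceeded its paralog FOXA1 by 6.33 times, where FOXA1 was at 1.95 and 1.75 FPKM. HNF4A, best known from liver and gut, was at 3.19 and 3.21 FPKM. CDX2 was at 0.335 and 0.294 FPKM, PDX1 at 0.0797 and 0 FPKM, and GRHL2, a regulator of epithelial junction genes, at 0.00814 and 0.0298 FPKM.

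Products known from liver and gut were mostly low. On the list of hepatic and intestinal genes, 4 of 17 were above 1 FPKM, against 61.8% of all genes. They were the fibrinogen-like FGL1 at 3.82 and 4.15 FPKM, the intestinal cadherin CDH17 at 3.75 and 3.69 FPKM, vitronectin (VTN) at 1.39 and 1.85 FPKM and the urea cycle enzyme CPS1 at 1.61 and 1.31 FPKM. Albumin (ALB) was at 0.0130 and 0.0119 FPKM, AFP at 0 and 0.0119 FPKM, and the brush border villin gene VIL1 at 0 in both.

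Markers of the other airway and alveolar cells were low too, and each list had a smaller share above 1 FPKM than the 61.8% of all genes. Among type 1 cell genes, 3 of 8 were above 1 FPKM, led by the caveolae genes CAV1 at 162 and 167 FPKM and CAV2 at 49.0 and 48.2 FPKM, which many cell types express. AGER, the receptor that marks type 1 cells, was at 0.556 and 0.748 FPKM, and PDPN and CLIC5 were at 0. Of 12 listed club and goblet cell genes, 6 were in the table. Among these 6, the mucin gene MUC5AC, at 1.78 and 1.21 FPKM, was the sole gene above 1 FPKM. Of 9 ciliated cell genes, MCIDAS at 1.14 and 1.58 FPKM and TPPP3 at 1.13 and 1.26 FPKM passed that level, while the master regulator FOXJ1 was at 0 and 0.147 FPKM. Of 8 basal and squamous genes, KRT15 passed it at 1.28 and 1.52 FPKM, with TP63 at 0.126 and 0.0538 FPKM and KRT5 at 0.0662 and 0.133 FPKM. The neuroendocrine factors NEUROD1 and INSM1 and the tuft cell factor POU2F3 were at 0, although the granin gene CHGB was at 3.79 and 4.46 FPKM.

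Several keratin genes and a few mesenchymal genes were at similar high levels. Of 19 epithelial genes 13 were above 1 FPKM, a share near the 61.8% of all genes, and the list's median was 16.5 FPKM. Of 12 mesenchymal genes 9 were above 1 FPKM (6 without replicate 2), and 4 reached 10 FPKM, where 29.8% of all genes did. The median of this list was 3.50 FPKM against 3.06 FPKM over all genes. KRT8, KRT7 and KRT18, the keratins of simple epithelia, were at 1093 and 1134 FPKM, 995 and 1020.0 FPKM and 981 and 984 FPKM. The hair keratin gene KRT81 stood among them at 1044 and 1048 FPKM, 127 times the level of its neighbour KRT86 at 8.37 and 8.10 FPKM; KRT81 lies inside the annotated span of KRT86 and resembles it in sequence, so the split of reads between them is uncertain. KRT19, another keratin of simple epithelia, was at 2.004 and 2.40 FPKM, 446 times below KRT18. The intermediate filament gene vimentin (VIM), a mesenchymal marker, was at 1057 and 1054 FPKM, level with the keratins. S100A4 was at 966 and 1017 FPKM and fibronectin (FN1) at 129 and 120.0 FPKM.

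Adhesion genes were unequal. The desmosome genes JUP at 39.8 and 36.8 FPKM and DSP at 26.0 and 25.7 FPKM and the tight junction scaffold gene TJP1 at 45.3 and 41.7 FPKM were well expressed. CLDN1 was at 52.3 and 54.1 FPKM and CLDN2 at 16.8 and 16.3 FPKM, whereas CLDN3 was at 0.209 and 0.362 FPKM, CLDN4 at 0.944 and 0.576 FPKM and CLDN7 at 0.0186 and 0.221 FPKM. E-cadherin (CDH1) was at 4.08 and 3.55 FPKM and N-cadherin (CDH2) at 8.07 and 7.41 FPKM, so N-cadherin was the higher by 1.98 times in replicate 1 and 2.09 times in replicate 2. EPCAM, an adhesion molecule of most carcinomas, was at 0.862 and 0.386 FPKM, and the epithelial splicing regulators ESRP1 and ESRP2 were at 0.0151 and 0.0483 FPKM and 0.00877 and 0.0321 FPKM. Among regulators of the mesenchymal state, ZEB1 led with 5.46 and 6.01 FPKM, ahead of SNAI1 at 0.991 and 1.54 FPKM, TWIST1 at 0.782 and 1.40 FPKM, SNAI2 at 0.761 and 0.461 FPKM and ZEB2 at 0.557 and 0.609 FPKM. Overlap with a neighbouring gene touches this list: the median of 16.5 FPKM fell to 3.82 FPKM without KRT81 and CLDN1, which lie inside other protein-coding genes.

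**Figure D3:**
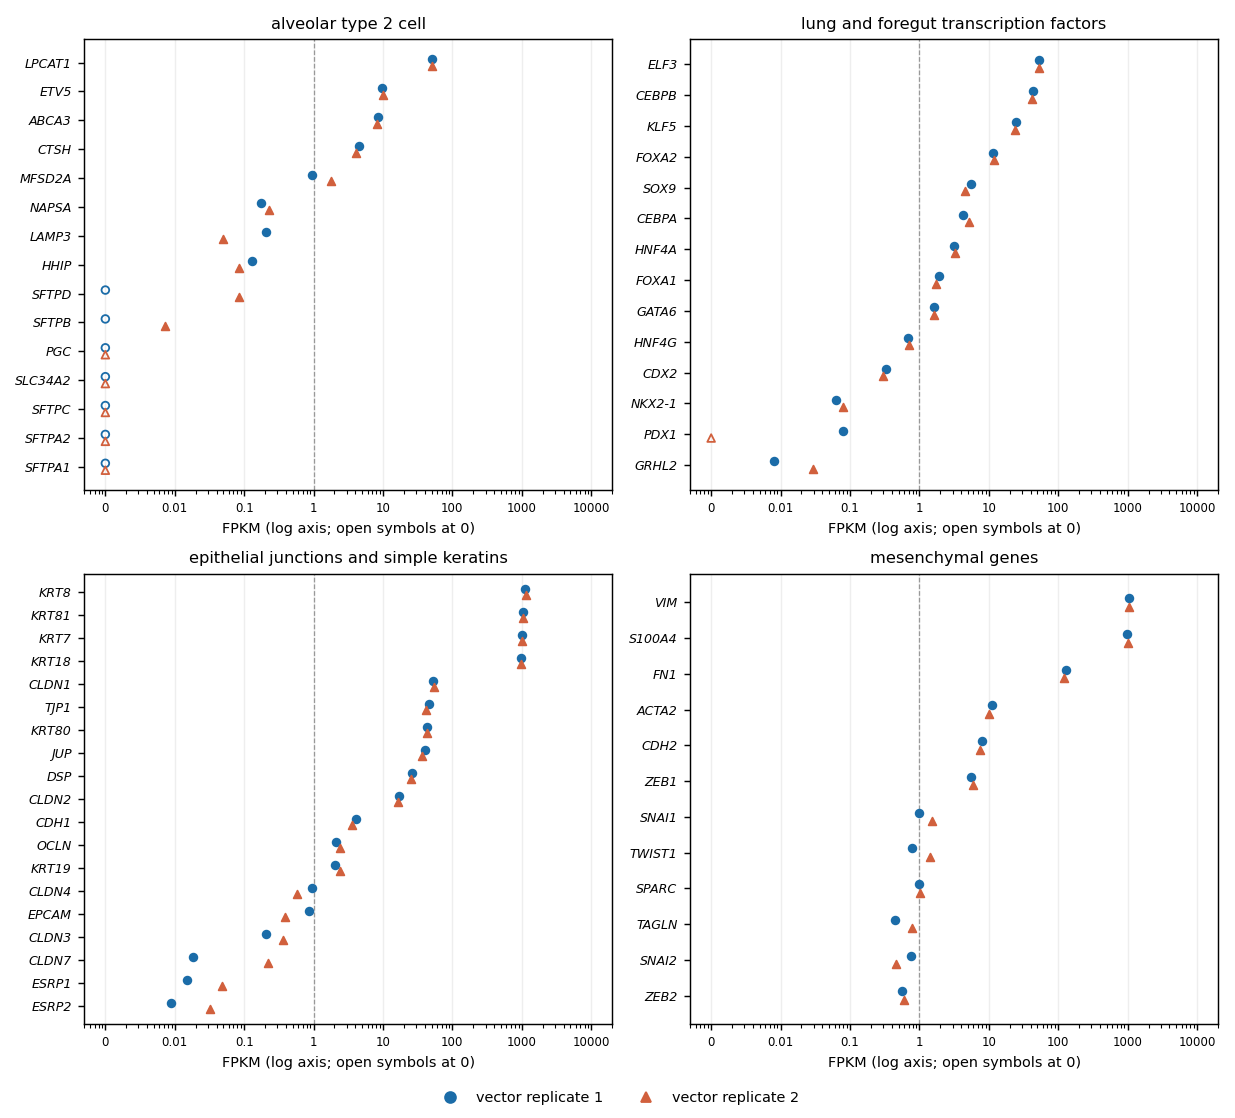
FPKM of the alveolar type 2 markers, lung and foregut transcription factors, epithelial genes and mesenchymal genes in vector replicate 1 (circles) and replicate 2 (triangles), on a log axis with open symbols for 0 and a dashed line at 1 FPKM. Surfactant genes lie at or near 0, while KRT8, KRT81, KRT7 and KRT18 lie near the level of VIM, at 981 to 1134 FPKM against 1057 and 1054 FPKM.

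Most markers of non-epithelial cells were close to 0, and each list had a smaller share above 1 FPKM than the 61.8% of all genes. None of the 10 fibroblast genes reached a mean of 1 FPKM, with COL1A1 the highest at 0.516 and 0.591 FPKM and COL1A2 and POSTN at 0. The leukocyte gene PTPRC was at 0 in both, which allows up to 0.0140 and 0.0129 FPKM, and LYZ and HBA1 were at 0. CD68, a lysosomal protein gene used as a macrophage marker, was at 48.8 and 50.2 FPKM. Of 10 endothelial genes, EGFL7 at 10.3 and 10.8 FPKM and ESAM at 1.67 and 1.54 FPKM passed 1 FPKM, and CDH5 was at 0.352 and 0.178 FPKM. TUBB3, a tubulin of neurons and of many carcinomas, was at 115 and 119 FPKM, while the muscle genes DES, CKM, TNNT2 and MYH2 were at 0.

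Glycolysis genes were prominent at high levels. Of 32 measured genes, 22 were above 1 FPKM, a share near the 61.8% of all genes. Above 100 FPKM were 9, against 3.35% of all genes, and the list held 2.42% and 2.46% of the FPKM total. In several steps a single isoenzyme carried most of the family's FPKM sum. PFKP, the platelet form of phosphofructokinase, held 88.8% and 88.7% at 228 and 219 FPKM, against 16.5 and 15.5 FPKM for PFKL and 12.3 and 12.4 FPKM for PFKM. ENO1 held 95.4% and 95.5% of the enolase sum at 956 and 982 FPKM. The liver form PKLR, the sperm form GAPDHS and the muscle form PGAM2 were at 0. Other families were shared between members. LDHA, which favours lactate, held 64.6% and 64.3% of the lactate dehydrogenase sum: it was at 1002 and 1038 FPKM and exceeded LDHB, at 548.7 and 577 FPKM, by 1.81 times.

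The hexokinases and aldolases were shared as well. HKDC1, a hexokinase domain protein gene, was the highest of 5 hexokinase genes at 44.6 and 46.3 FPKM, ahead of HK1 at 29.9 and 28.2 FPKM. HK2, the form most often described in tumours, was at 0.215 and 0.356 FPKM. Aldolase, an obligatory step, was listed at 4.63 and 4.26 FPKM for ALDOA and 5.03 and 5.15 FPKM for ALDOC, far below the 477 and 495 FPKM of the next enzyme gene, TPI1. ALDOA (chromosome 16, 30064279 to 30070420) lies 99.9% inside another protein-coding gene model, itself listed at 0.765 and 0.806 FPKM. Whether reads that fit both models were left uncounted was not tested, so the ALDOA level is uncertain. Of the 4 listed glucose transporter genes, SLC2A1 was the highest at 65.5 and 59.8 FPKM. SLC2A3 was at 10.3 and 11.03 FPKM and the insulin-regulated SLC2A4 at 0.00878 and 0.00804 FPKM.

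The pentose phosphate pathway, which supplies NADPH and ribose, had 8 of 9 genes above 1 FPKM, against 61.8% of all genes, and 4 above 100 FPKM, against 3.35%. PGD, an oxidative dehydrogenase of the pathway, was at 680.1 and 680.3 FPKM. PGLS, the lactonase upstream of it, was at 11.7 and 11.7 FPKM, 58.2 times below PGD. In the branch that returns carbon to glycolysis, TKT was at 572 and 564 FPKM and TALDO1 at 301 and 328 FPKM. The transketolase paralog TKTL1 was at 0 and 0.0512 FPKM.

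Genes listed as NRF2 targets or aldo-keto reductases had the highest median of the 38 gene lists apart from the added ribosomal list. The lists were chosen with earlier results of these data known, so this rank is a description only. Of 31 genes, 29 were above 1 FPKM and 20 above 100 FPKM, against 61.8% and 3.35% of all genes, with a median of 185 FPKM, and together they held 6.26% and 6.18% of the FPKM total, including both ferritin genes. NQO1, a quinone reductase, was at 575 and 599 FPKM. ALDH3A1 was at 1076 and 1010.2 FPKM and thioredoxin (TXN) at 895 and 921 FPKM, with its reductase TXNRD1 at 528 and 535 FPKM. The peroxidase genes PRDX1 at 778 and 805 FPKM and GPX2 at 234 and 239 FPKM and the sulfiredoxin gene SRXN1 at 249 and 253 FPKM were also high. Among steroid-reducing AKR1C genes, AKR1C3 was at 729.6 and 767 FPKM, AKR1C2 at 458 and 468 FPKM, AKR1C1 at 175 and 173 FPKM and the liver form AKR1C4 at 0.323 and 0.273 FPKM. AKR1C1 and AKR1C2 are nearly identical in sequence, so their ratio of 2.66 depends on how shared reads were assigned.

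Glutathione synthesis stood lower on the same list. GCLC, the catalytic subunit of its rate-limiting enzyme, was at 78.6 and 78.6 FPKM and GCLM, the modifier subunit, at 28.9 and 28.0 FPKM. The cystine importer gene SLC7A11 was at 44.0 and 43.9 FPKM and the NADPH-producing malic enzyme gene ME1 at 32.5 and 33.2 FPKM. CBR3 was at 8.21 and 10.9 FPKM, and UGT1A6, at 0.334 and 0.200 FPKM, lay below 1 FPKM like AKR1C4. UGT1A6 lies inside the annotated span of UGT1A10, itself listed at 0.0123 and 0 FPKM. Whether reads that fit both models were left uncounted was not tested, so the UGT1A6 level is uncertain. The regulators themselves were at moderate levels: NFE2L2 at 48.2 and 52.5 FPKM, KEAP1 at 52.3 and 54.7 FPKM and CUL3, the ubiquitin ligase scaffold that works with KEAP1, at 18.8 and 18.9 FPKM. Their part in the levels of the list was not tested.

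NRF2 binds the antioxidant response element, whose core can be written TGACNNNGC. Of the 31 list genes, 16 had a single listed start. Among these, 4 (25%) held the letters on either strand in the 250 bases before the start, against 11.96% of all 9819 promoters. Because the list was made of genes already named as NRF2 targets or aldo-keto reductases, this share is a description, and no test was made. The 4 promoters are shown because they place the match, in capitals, in expressed genes of the list; a match is not a binding site by itself. They are written 5′ to 3′ on the coding strand of GRCh38.p14: GPX2 at chr14:64942746-64942995, ME1 at chr6:83431052-83431301, GCLM at chr1:93909431-93909680 (all minus strand) and CBR1 at chr21:36069774-36070023 (plus strand).
GPX2: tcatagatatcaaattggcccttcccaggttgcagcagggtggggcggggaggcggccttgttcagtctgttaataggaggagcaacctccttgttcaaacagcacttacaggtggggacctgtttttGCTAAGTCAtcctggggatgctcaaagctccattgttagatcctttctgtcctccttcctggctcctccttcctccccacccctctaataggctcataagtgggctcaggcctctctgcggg
ME1: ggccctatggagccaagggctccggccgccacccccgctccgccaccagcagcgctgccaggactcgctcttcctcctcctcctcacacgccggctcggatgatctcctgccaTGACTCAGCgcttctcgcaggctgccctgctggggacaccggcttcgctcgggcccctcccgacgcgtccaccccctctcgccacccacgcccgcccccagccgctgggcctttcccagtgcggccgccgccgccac
GCLM: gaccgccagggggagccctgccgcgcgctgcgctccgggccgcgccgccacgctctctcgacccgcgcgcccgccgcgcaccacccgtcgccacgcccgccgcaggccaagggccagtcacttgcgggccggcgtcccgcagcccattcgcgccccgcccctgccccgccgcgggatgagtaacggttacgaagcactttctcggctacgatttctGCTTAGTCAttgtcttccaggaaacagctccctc
CBR1: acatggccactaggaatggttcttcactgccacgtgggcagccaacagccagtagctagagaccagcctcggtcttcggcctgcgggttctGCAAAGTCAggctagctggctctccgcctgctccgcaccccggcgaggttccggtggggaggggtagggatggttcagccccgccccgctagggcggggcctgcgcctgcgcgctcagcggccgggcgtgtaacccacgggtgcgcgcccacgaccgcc
Read along the coding strand, the match began 122 bases before the start in GPX2, 137 in ME1, 34 in GCLM and 159 in CBR1. ME1 carries the letters on the coding strand and the other 3 genes carry them on the opposite strand. CBR1, a carbonyl reductase gene, was at 72.6 and 77.7 FPKM.

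**Figure D4:**
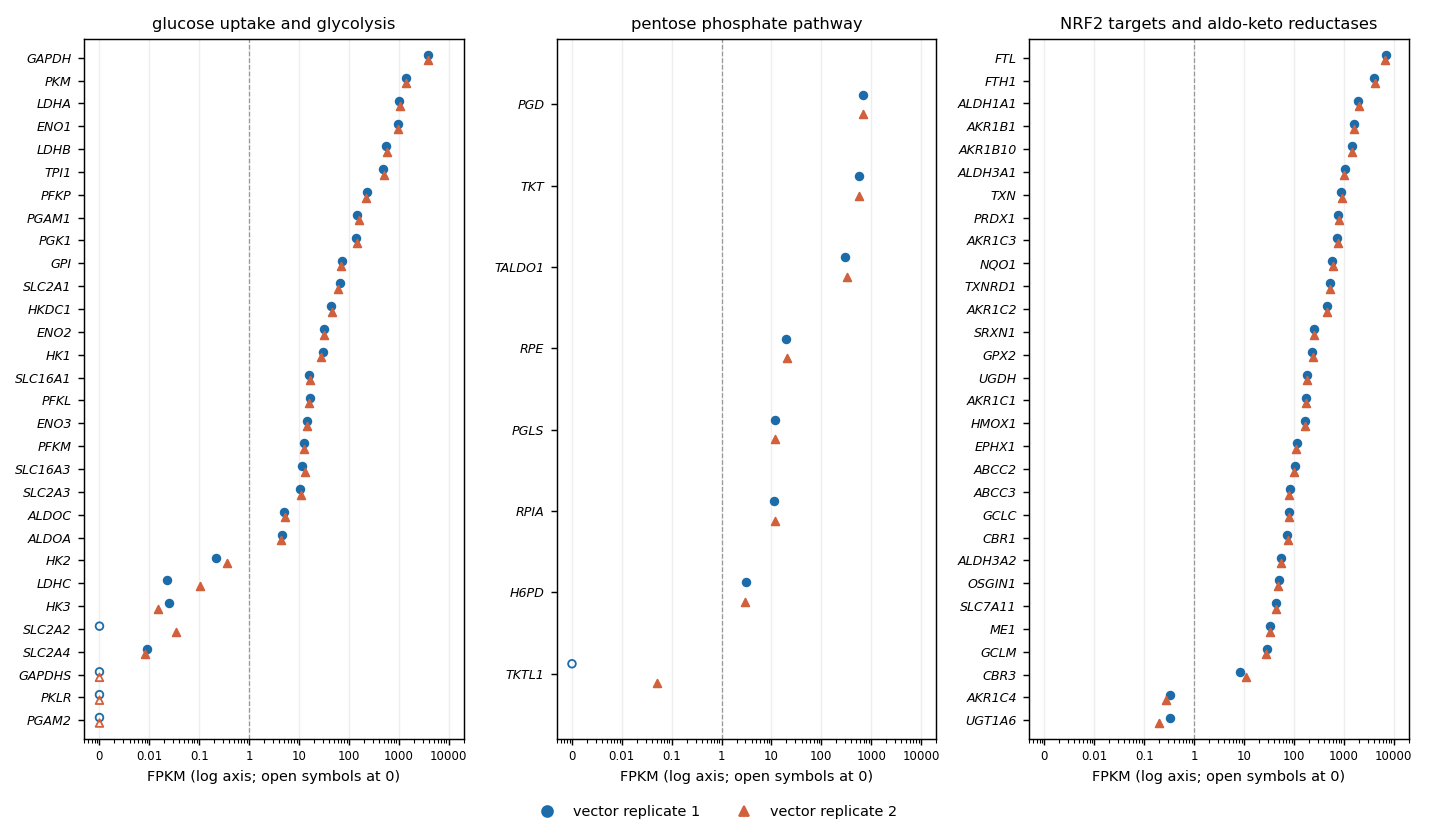
FPKM of glycolysis, pentose phosphate and NRF2-listed genes in vector replicate 1 (circles) and replicate 2 (triangles), on a log axis with open symbols for 0 and a dashed line at 1 FPKM. Pyruvate kinase is split into a high form and a form at 0 (PKM at 1394 and 1412 FPKM, PKLR at 0), and LDHA and LDHB are both high. Most NRF2-listed genes lie above 100 FPKM, with AKR1C4 and UGT1A6 below 1 FPKM. UGT1A6 lies inside the span of UGT1A10, so its level is uncertain.

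Other detoxifying enzymes were selective. The glutathione transferase gene GSTP1 was at 582 and 601 FPKM, 84.2 times the level of GSTA4, while GSTM1 was at 0 in both libraries, which allows up to 0.0731 and 0.0669 FPKM. Glutathione peroxidase GPX4, which guards membranes from lipid peroxidation, was at 165 and 175 FPKM. Among the listed cytochrome P450 genes, CYP24A1, which degrades active vitamin D, was the highest at 179.7 and 165 FPKM. Its known regulator, the vitamin D receptor gene VDR, was at 2.05 and 2.29 FPKM. CYP1B1 was at 41.6 and 38.7 FPKM, CYP3A4, the main drug oxidase of liver, at 0.0107 and 0 FPKM and CYP1A2 at 0.

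Mitochondrial and biosynthetic genes were above 1 FPKM in a larger share than the 61.8% of all genes. In the tricarboxylic acid cycle 25 of 26 genes passed it, led by MDH2 at 158 and 156 FPKM, and the gluconeogenic PCK1 was at 0. All 12 genes of serine, glycine and folate metabolism were above 1 FPKM. Within that list TYMS, which makes thymidylate, was the highest at 96.6 and 102 FPKM, and PHGDH, the entry to serine synthesis, was at 5.88 and 6.11 FPKM while the next enzyme PSAT1 was at 87.3 and 89.2 FPKM. All 16 lipid synthesis genes were above 1 FPKM, led by the desaturase SCD at 267 and 259 FPKM and the citrate lyase ACLY at 235 and 215 FPKM. Glutamine synthetase (GLUL) was at 0.233 and 0.387 FPKM, whereas the glutamine importer gene SLC1A5 was at 73.3 and 70.7 FPKM.

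Receptor tyrosine kinase genes ranged widely. Of 25 genes, 14 were above 1 FPKM, a share near the 61.8% of all genes. None had a mean above 100 FPKM, where 3.35% of all genes did. At 0 in both libraries were 3, a share near the 10.1% of all genes. MET, the hepatocyte growth factor receptor gene, was the highest at 91.1 and 88.9 FPKM. AXL followed at 87.7 and 82.3 FPKM, and the lower MET value lay above the higher AXL value. EGFR was at 70.8 and 62.8 FPKM, FGFR1 at 65.4 and 62.9 FPKM and the ephrin receptor EPHA2 at 59.2 and 60.7 FPKM; EGFR and FGFR1 overlapped and are not ordered by these libraries. ERBB2 was at 11.2 and 11.4 FPKM, ERBB3 at 0.371 and 0.311 FPKM and ERBB4 at 0, so that EGFR held 86.0% and 84.3% of the ERBB sum.

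Kinases that act as fusion drivers in lung adenocarcinoma were low. ALK was at 0 in both libraries, which allows up to 0.0107 and 0.00979 FPKM. ROS1 was at 0.120 and 0.106 FPKM and RET at 0.163 and 0.226 FPKM. NTRK2 was at 0, and NTRK3 was the exception at 1.46 and 1.24 FPKM. Ligands of the ERBB receptors were present: AREG at 89.3 and 91.7 FPKM, EREG at 59.1 and 57.3 FPKM and NRG1 at 20.8 and 20.8 FPKM, while EGF itself was at 0.0195 and 0.0715 FPKM. AREG thus stood above its receptor gene EGFR by 1.26 times in replicate 1 and 1.46 times in replicate 2.

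All 17 genes of the RAS, RAF and downstream list were above 1 FPKM, against 61.8% of all genes. NRAS was at 21.6 and 22.2 FPKM and HRAS at 51.2 and 53.4 FPKM. HRAS lies inside the span of LRRC56, which was at 0.199 and 0.0729 FPKM. ARAF was at 24.4 and 23.2 FPKM and BRAF at 2.16 and 1.86 FPKM, the lowest of the list. MAP2K2 was at 63.0 and 63.5 FPKM and MAP2K1 at 19.1 and 19.7 FPKM, with their substrate MAPK3 at 18.5 and 18.7 FPKM. In the phosphoinositide branch, PIK3CA was at 3.17 and 3.24 FPKM, AKT1 at 44.5 and 43.4 FPKM and MTOR at 10.9 and 10.6 FPKM.

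MYC, the proliferation factor, was at 51.0 and 51.5 FPKM, MYCL at 0.147 and 0.123 FPKM and MYCN at 0 in both libraries. Cyclin D1 (CCND1) was at 109.9 and 106 FPKM and cyclin D3 (CCND3) at 78.7 and 76.3 FPKM, whereas CCND2 had 1 and 2 reads. Their partner CDK4 was at 92.4 and 101 FPKM. The telomerase gene TERT was at 0.528 and 0.625 FPKM. Among survival genes, BCL2L1, which encodes BCL-XL, was at 128 and 126 FPKM and BCL2 at 0.470 and 0.342 FPKM, 312 times lower.

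Of 28 tumour suppressor genes, 24 were above 1 FPKM, against 61.8% of all genes, with a median of 9.78 FPKM against 3.06 FPKM. CDKN1A, the cell cycle inhibitor p21, was at 89.6 and 86.7 FPKM. STK11, the kinase LKB1, was at 16.0 and 16.8 FPKM, so transcripts of STK11 and KEAP1 were counted in a line known to carry mutant forms of both. RB1 was at 12.2 and 12.4 FPKM, NF1 at 16.4 and 14.9 FPKM and SMAD4 at 6.77 and 6.25 FPKM. The antigen presentation gene B2M was the highest of the list at 398 and 401 FPKM. Below 1 FPKM were FHIT at 0.177 and 0.270 FPKM, LRP1B at 0 and 0.00126 FPKM, CDKN2A and CDKN2B. Between 1 and 4 FPKM were ATM at 3.48 and 3.51 FPKM, FBXW7 at 2.91 and 2.96 FPKM and SMARCA4 at 2.96 and 3.30 FPKM.

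SMARCA4 encodes a motor subunit of the SWI/SNF chromatin remodeller. The alternative motor SMARCA2 was at 6.41 and 6.02 FPKM, above SMARCA4 by 2.17 times in replicate 1 and 1.82 times in replicate 2. Of the 15 SWI/SNF genes, 14 were above 1 FPKM, against 61.8% of all genes. SMARCE1 at 39.0 and 41.0 FPKM and ACTL6A at 39.6 and 39.0 FPKM led them. The neuronal subunit ACTL6B was at 0.0194 and 0 FPKM. Other tumour suppressor genes lay between 5.39 and 5.41 FPKM for APC and 22.0 and 22.5 FPKM for RBM10, with CUL3, BAP1, ARID1A, SETD2, CDKN1B, RASSF1, TSC1, TSC2, MGA and ARID2 among them.

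Of 31 listed genes of chromosome 9p21 and its flanks, 18 were in the table. Along this region, CDKN2A and CDKN2B had at most 6 reads per library, and expressed genes lay on both sides. On the side of lower coordinates, MLLT3 was at 5.87 and 5.96 FPKM and FOCAD at 8.82 and 9.07 FPKM. The adjacent HACD4 had 9 and 8 reads, IFNB1 had 8 and 8 reads, IFNA10 and IFNA2 had 0, and KLHL9, which lies within the interferon cluster, was at 9.97 and 10.8 FPKM from 1931 and 2278 reads. IFNE was at 0.743 and 0.662 FPKM. MTAP (chromosome 9, 21802636 to 21941115), the methylthioadenosine phosphorylase gene next to CDKN2A, was at 1.59 and 1.79 FPKM from 323 and 398 reads.

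CDKN2A (chromosome 9, 21967752 to 21995324), which encodes the inhibitors p16 and ARF, had 6 and 4 reads, with exact 95% Poisson intervals of 2.20 to 13.1 and 1.09 to 10.2 reads. CDKN2B (chromosome 9, 22002903 to 22009313), which encodes p15, had 2 and 0 reads. Beyond them DMRTA1 was at 0.584 and 0.539 FPKM from 110 and 111 reads, ELAVL2 had 4 and 12 reads and TUSC1 was at 1.97 and 1.95 FPKM. Farther out, CAAP1 was at 7.70 and 8.69 FPKM, PLAA at 9.38 and 9.74 FPKM, IFT74 at 3.15 and 3.42 FPKM and TEK, an endothelial gene, at 0.0187 and 0.0399 FPKM. Positions are on GRCh38.p14. CDKN2A and CDKN2B were thus low between MTAP and DMRTA1, but low values were not confined to them. HACD4, at a mean of 0.0276 FPKM, and ELAVL2, at a mean of 0.0349 FPKM, were about as low as CDKN2A, at a mean of 0.0310 FPKM. IFNA10 and IFNA2 were at 0. Values per gene cannot tell a deleted gene from a silent one.

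**Figure D5:**
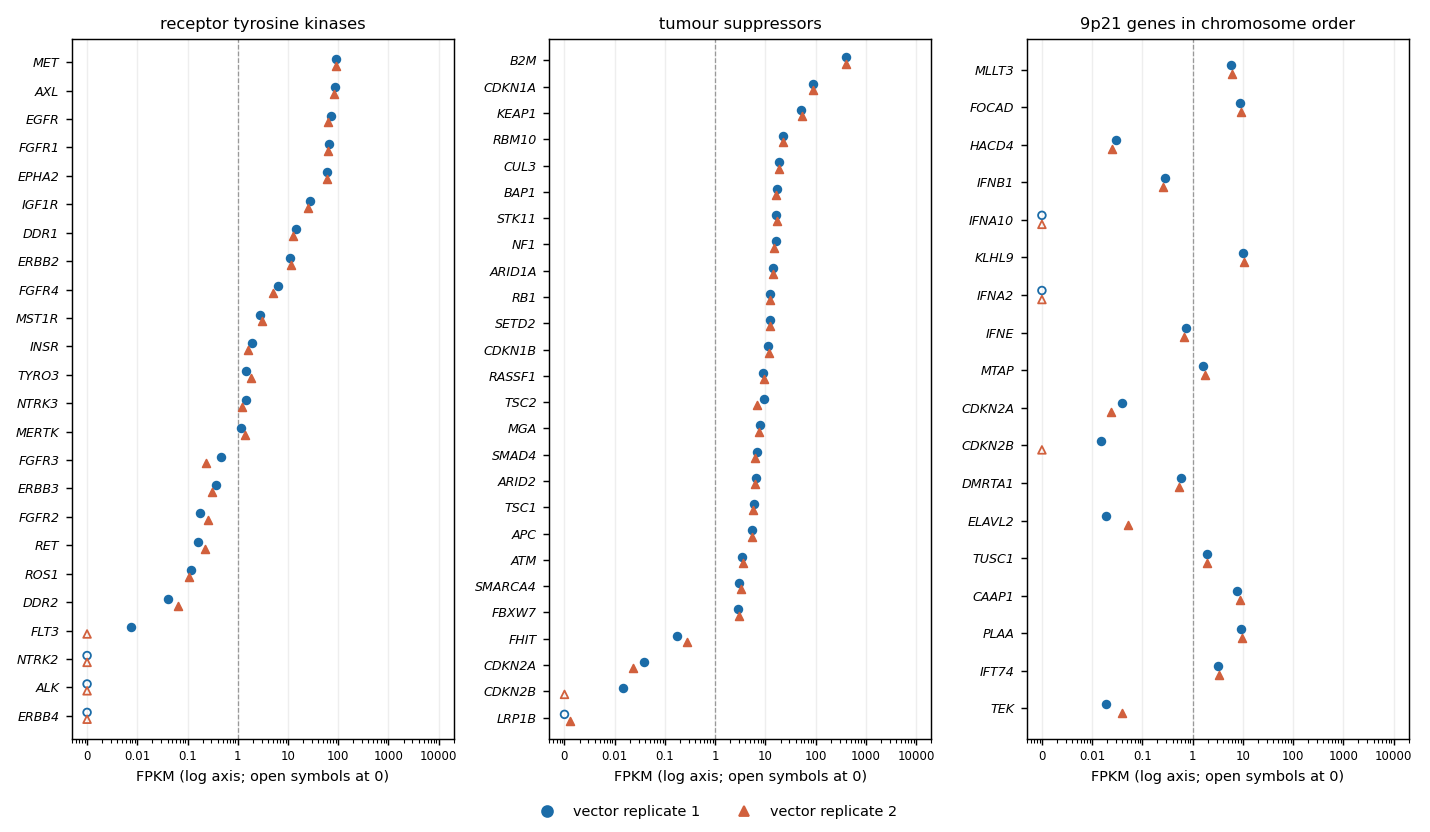
FPKM of receptor tyrosine kinase genes, tumour suppressor genes and genes of chromosome 9p21 (in chromosome order from top to bottom) in vector replicate 1 (circles) and replicate 2 (triangles), on a log axis with open symbols for 0 and a dashed line at 1 FPKM. MET leads the kinases at 91.1 and 88.9 FPKM. CDKN2A and CDKN2B lie below 0.04 FPKM between MTAP and DMRTA1, and HACD4 lies below that level too.

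Of 24 genes for surface proteins targeted by antibody and cell therapies, 11 were above 1 FPKM, against 61.8% of all genes. The adhesion receptor gene CD44 was the highest at 145 and 143 FPKM, followed by CD24 at 99.9 and 95.1 FPKM. CEACAM6 was at 24.2 and 24.3 FPKM but its relative CEACAM5 at 0.00847 and 0.0310 FPKM. The folate receptor gene FOLR1 was at 0. The checkpoint ligand gene CD274 was at 0.292 and 0.398 FPKM, against 13.2 and 13.2 FPKM for CD276. MSLN had 18 and 1 reads, so its level differed between the replicates beyond their counting intervals of 10.7 to 28.4 and 0.0253 to 5.57 reads.

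Entry factors of respiratory viruses were also uneven. TMPRSS2, a serine protease that primes viral spike proteins, was at 0 with limits of 0.0249 and 0.0228 FPKM. The endosomal protease gene CTSL was at 504 and 557 FPKM, 5.92 times CTSB. FURIN was at 14.9 and 14.1 FPKM, NRP1 at 58.4 and 54.5 FPKM and the adenovirus receptor CXADR at 4.69 and 4.29 FPKM.

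Secreted and matrix genes completed the description. Among the listed cytokines, MIF was the highest at 416 and 459 FPKM and osteopontin (SPP1) was at 224 and 236 FPKM. GDF15 was at 89.4 and 93.2 FPKM and the neutrophil chemokine CXCL5 at 84.4 and 84.2 FPKM, while TNF was at 0. Among proteases and inhibitors, urokinase (PLAU) was at 136 and 135 FPKM and the inhibitor TIMP2 at 68.7 and 67.2 FPKM. Among the listed matrix metalloproteinase genes, MMP7 was the highest at 118 and 122 FPKM, against 0.0254 and 0.0116 FPKM for MMP9. Of 28 matrix and integrin genes 25 were above 1 FPKM, against 61.8% of all genes. The integrins ITGB1 at 546 and 546 FPKM and ITGA3 at 203 and 198 FPKM led them. Of 14 listed cancer-testis antigen genes, 10 were in the table. Among these 10, PRAME, at 27.8 and 27.5 FPKM, was the sole gene above 1 FPKM, against 61.8% of all genes. The near-identical MAGEA copies MAGEA3 and MAGEA6 were at 0.0806 and 0.116 FPKM and 0.255 and 0.233 FPKM.

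The 14 genes often used as references in quantitative PCR spanned a wide range and were all above 1 FPKM, against 61.8% of all genes. They ran from TBP at 9.27 and 6.93 FPKM and GUSB at 16.0 and 14.6 FPKM to ACTB and GAPDH. HPRT1 at 50.7 and 49.7 FPKM and YWHAZ at 159.6 and 159 FPKM were closer between the replicates than TBP. Across chromosomes, the share of protein-coding genes of at least 1 FPKM ran from 54.0% on the X chromosome to 68.4% on chromosome 14. With 2 libraries of a single group there was no test, and no level was compared between groups.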

How the data were processed

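Total RNA of A549 cells was sequenced, and the authors deposited FPKM values per gene symbol for all libraries, per the labels. Per the submitters' processing notes, HISAT2, featureCounts, HTSeq and R 3.2.0 were used with hg38 (GRCh38), in roles that are not stated; for annotation, filters and strand use no source used here gives the choice. A mean over both vector libraries ranked the genes, and no test was run. Reads were recovered from the FPKM steps over all 8 columns, within 0.02 of whole numbers, for 17055 genes (EEF1A1 was not resolved); the method was checked on simulated data. A gene read in few libraries can be recovered too low. The members and the 38 gene lists (599 of 641 genes in the table) were chosen with earlier results of these data known, and the HOX, keratin, nuclear receptor and ribosomal protein lists were added after values were seen. Named genes were the 30 highest, all members of lists of up to 12 genes and of the kinase, RAS, suppressor, 9p21 and type 2 lists, and otherwise the 6 highest, 4 lowest and those at 0. Other genes named, most of them list members, were chosen after their values were seen. RefSeq positions and promoters are on GRCh38.p14, and 16979 symbols matched. Genes of the lists outside the table were not analysed here, and some list members are counted but neither named nor drawn. Python 3.11.15, NumPy 2.4.6, pandas 2.3.3, SciPy 1.17.1 and matplotlib 3.10.9 were used.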

Additional observations from a re-analysis of the deposited data

How the results depend on the processing

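No paired analysis was possible because the description uses 1 group and makes no test. Scaling to TPM multiplied the values by 2.69 and 2.65, which raised the number of genes at or above a mean of 100 from 571 to 1710 and moved 41 of 42 list medians by more than their spread. It cannot change the order of genes within a library. The count of genes of at least 1 FPKM, the count at 0 and the number of genes that hold 50% of the total stayed within 1.5 times under all alternatives run for them (a single library, pseudocounts of 0.1 and 1 on log2 means, minimums of 0.5 and 2 FPKM, at least 10 recovered reads, protein-coding genes). With either library left out, the highest member of the families held, and the members above 1 FPKM stayed within 1.5 times in all 42 lists. That count moved by more than 1.5 times in 5 lists under TPM scaling, in 3 at a minimum of 0.5 FPKM, in 7 at a minimum of 2 FPKM and in 8 at a minimum of 10 reads, mostly lists of other cell types. Ciliated cell genes went from 2 to 5 and type 1 cell genes from 3 to 5 under TPM scaling and at 0.5 FPKM. Leaving out genes inside another protein-coding gene, chosen after seeing the data, moved 5 list medians. Depth limits genes below 0.1 FPKM, where a few reads decide the level.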

Other observations

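HOX, keratin and nuclear receptor genes, chosen after their values were seen, are given as a description, beside 61.8% of all genes above 1 FPKM. Of 38 HOX genes, which pattern the body axis, 20 were above 1 FPKM, and HOXB7 stood out at 17.0 and 18.2 FPKM, 3.66 times the next, HOXC9, at 4.87 and 4.73 FPKM. HOXC12 and HOXD12 were at 0 in both libraries. HOXA4, HOXA5 and HOXA6 lie inside the annotated span of HOXA3, so their reads may be shared. Of 43 keratin genes, 9 were above 1 FPKM and 17 were at 0 in both libraries, where 10.1% of all genes were. Among 45 nuclear receptor genes, 26 were above 1 FPKM. NR0B1, an orphan receptor known from adrenal development, was the highest at 45.5 and 45.7 FPKM, 3.39 times the glucocorticoid receptor NR3C1 at 13.5 and 13.3 FPKM. PPARG was at 12.6 and 12.8 FPKM, whereas the estrogen receptor ESR1 was at 0.00181 and 0.00165 FPKM. The bile acid receptor NR1H4 was at 0.0256 and 0.175 FPKM and the xenobiotic receptor NR1I2 at 0.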
